A study of Mus musculus domesticus and Mus musculus molossinus with 8 samples.

Results

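Gene expression was compared between the liver and the thymus of the same 4 mice, so that each difference was taken within 1 animal. Of 23284 genes in the deposited tables, 12880 averaged at least 1 FPKM in either organ and were tested, and the 9105 of these that averaged at least 5 FPKM in either organ are described here. FPKM scales the number of sequenced fragments by the length of the transcript and by a measure of the size of the library. The quantity compared was liver minus thymus in log2(FPKM + 1), so a positive difference means a higher level in liver. Genes were called when limma, with the mouse as a block, gave a Benjamini-Hochberg adjusted p below 0.05 over all 12880 genes.

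All mice were 8 weeks old. They belonged to the wild-derived MSM/Ms strain (MSM) of Japanese origin or to C57BL/6 (B6), the common laboratory strain. From each strain, 1 mouse had received 1.5 µg of MegaFasL by intraperitoneal injection and 1 mouse was untreated. MegaFasL is a multimeric form of the ligand of Fas, a death receptor. The 4 livers and the 4 thymi therefore each comprised MSM MegaFasL, B6 MegaFasL, MSM untreated and B6 untreated, and values of single libraries are given in that order throughout. No combination of strain and treatment was replicated, so the spread between the 4 differences mixes strain, treatment and individual mouse. In whole organs, fewer cells of a type and less RNA per cell cannot be told apart.

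Hepatocytes secrete most plasma proteins, clear ammonia through the urea cycle, make bile acids, break down drugs and amino acids, and release glucose between meals. The thymus is filled with dividing T cell precursors that cut and rejoin their antigen receptor genes with the Rag recombinase, test the resulting receptors on thymic epithelium, and mostly die when the receptor fails. Many enzymes of central metabolism are encoded by several genes, 1 of which is used mainly in liver and others in most other tissues, and these pairs allow the same reaction to be followed in both organs.

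The 4 marker genes followed the organ labels in every library. Alb, which encodes albumin and lies on the plus strand of chromosome 5 (mm10, chr5:90460897-90476602), had 86100, 55200, 74400 and 62400 FPKM in the livers, against 139, 49.8, 1770 and 24.1 FPKM in the thymi. Apoa2, which encodes an apolipoprotein of high density lipoprotein (plus strand, chr1:171225054-171226379), had 16800, 12600, 14300 and 12900 FPKM in the livers, against 21.1, 7.44, 408 and 3.64 FPKM in the thymi. No thymus overlapped the livers for either gene, and the MSM untreated thymus held by far the most of both transcripts among the thymi. The differences were 9.0 ± 0.93 (SE, limma adjusted p = 0.000437, 10.21 without the MSM untreated mouse and 8.25 without the B6 untreated mouse) for Alb and 9.17 ± 1.00 (SE, limma adjusted p = 0.000539, 10.52 without the MSM untreated mouse and 8.41 without the B6 untreated mouse) for Apoa2. Rag1, which encodes a subunit of the recombinase (minus strand, chr2:101638282-101649501), had 0.787, 0.601, 0.715 and 9.88 FPKM in the livers, against 306, 489, 199 and 587 FPKM in the thymi. Themis, which encodes a protein needed for thymocyte selection (plus strand, chr10:28668360-28883818), had 0.505, 0.588, 0.306 and 1.93 FPKM in the livers, against 192, 140, 141 and 170 FPKM in the thymi. The livers lay below all thymi for both genes, and the B6 untreated liver was the highest of the livers. The differences were -7.07 ± 0.40 (SE, limma adjusted p = 7.88e-05) for Rag1 and -6.53 ± 0.23 (SE, limma adjusted p = 6.63e-05) for Themis. The positions are those of the GENCODE M21 gene models and cover exons and introns of protein-coding genes.

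**Figure D1:**
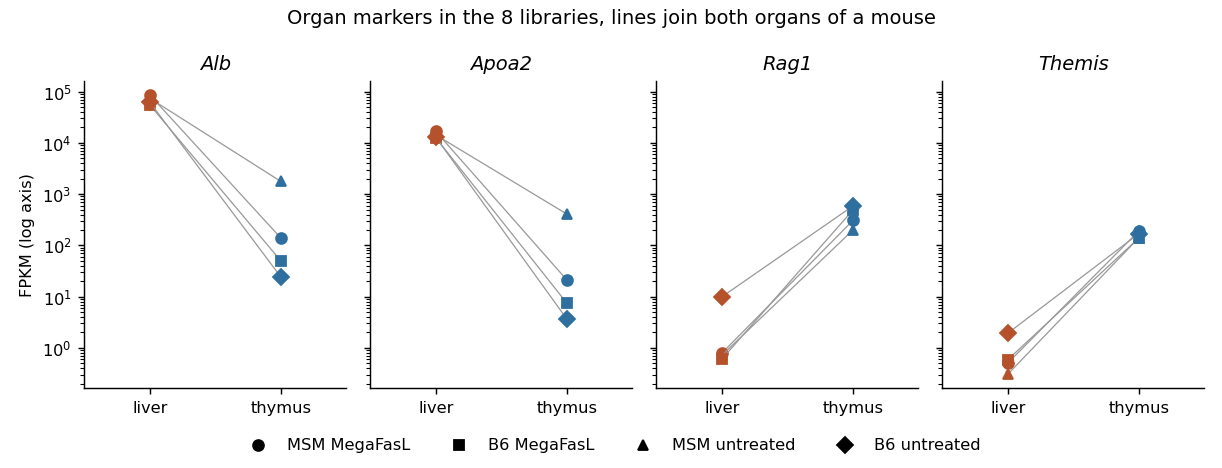
FPKM (log axis) of the 4 marker genes in the 8 libraries, liver on the left and thymus on the right, with a line joining both organs of a mouse and a symbol for each mouse. Alb stood at 1770 FPKM in the MSM untreated thymus and at 24.1 to 139 FPKM in the other thymi, and Rag1 at 9.88 FPKM in the B6 untreated liver and at 0.601 to 0.787 FPKM in the other livers.

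A library of each organ stood apart in the level of genes of the other organ. Summed over 20 plasma protein genes, FPKM came to 179000, 132000, 146000 and 135000 in the livers, against 294, 119, 3950 and 70.1 in the thymi, so the MSM untreated thymus carried 2.71% of the sum of its own mouse's liver and the other thymi 0.0519% to 0.164%. None of the 20 genes was listed at 0 in the MSM untreated thymus. Genes of adipose, muscle and airway cells also stood apart there, with sums of 10.6, 14.5, 20.8 and 12.5 FPKM in the livers, against 112, 126, 2210 and 143 FPKM in the thymi. Over 24 T cell receptor signalling genes, the sums were 13.3, 25, 16.3 and 59.8 FPKM in the livers, against 2620, 2310, 1770 and 2270 FPKM in the thymi, so the B6 untreated liver carried 2.64% of the sum of its own thymus and the other livers 0.506% to 1.08%. A rule made after these values were seen took genes with at least 50 FPKM in both livers of 1 strain, at most 10% of the lower of these levels in both livers of the other strain, and at most 1 FPKM in the other 3 thymi. The 16 genes high in B6 liver summed to 187 FPKM in the MSM untreated thymus, which was 2.74% of the B6 untreated liver, and 10 of them stood higher there than in the liver of the same mouse. The 4 genes high in MSM liver summed to 0.537 FPKM there, 0.0431% of the MSM untreated liver. An organ difference printed with its error or interval is, at its first mention below, also given without a mouse wherever leaving it out moved it by more than 1.5-fold or changed the call. The part of these levels in the results was not tested beyond that.

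**Figure D2:**
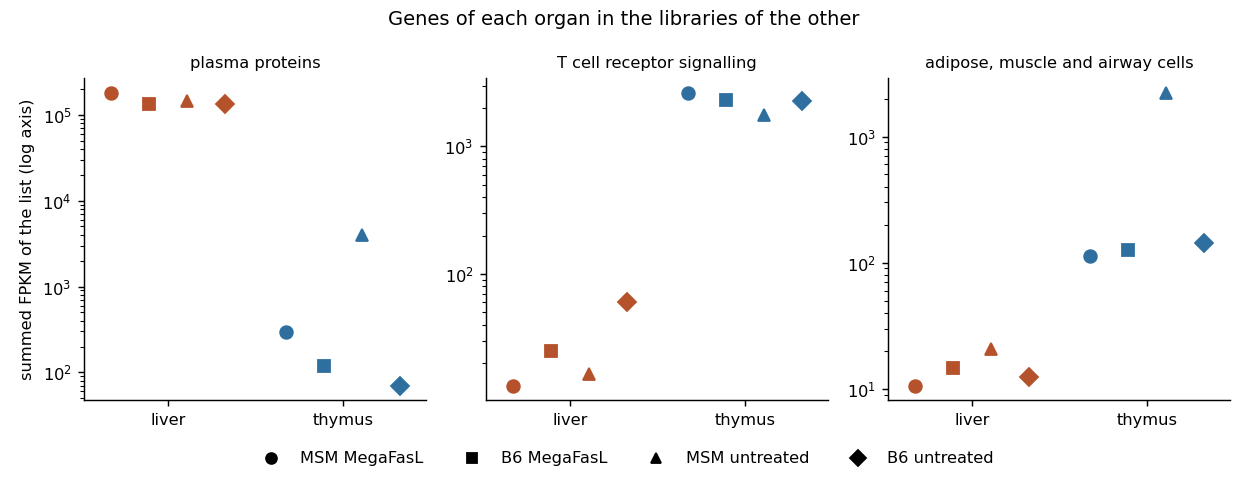
Summed FPKM (log axis) of 3 gene lists in the 8 libraries, livers on the left and thymi on the right, with a symbol for each mouse. The MSM untreated thymus stood at 3950 FPKM for plasma proteins and 2210 FPKM for adipose, muscle and airway genes, and the B6 untreated liver at 59.8 FPKM for T cell receptor signalling genes.

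The organs differed in the majority of expressed genes. Of the 9105 genes, 3230 were called higher in liver, 3003 higher in thymus and 2872 were not called. Over all 12880 genes tested, 28.6% were called higher in liver, 32.1% higher in thymus and 60.7% in either direction, and 8495 had an unadjusted p below 0.05. The sign was the same in all 4 mice for 6919 of the 9105 genes and for 69.2% of all genes tested. Of the called genes, 950 were at least 8-fold higher in liver and 502 in thymus on the log2(FPKM + 1) scale, and 243 were at least 64-fold higher in liver and 43 in thymus. Among genes with at least 100 FPKM in an organ, 627 were called higher in liver and 174 in thymus. That level was set on FPKM as deposited, which summed to more in every liver than in any thymus. The 627 and 174 are therefore tied to that scaling and are not given for another. They are counts and not shares of the genes that reached the level in each organ. The standard error of a difference had a median of 0.23 over the 9105 genes. Asb3 and Bcs1l lay just inside the level of 5 FPKM, with higher means of 5.0006 and 5.0011 FPKM, and Jrkl and Vmn1r58 just outside, with 4.997 and 4.9986 FPKM.

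**Figure D3:**
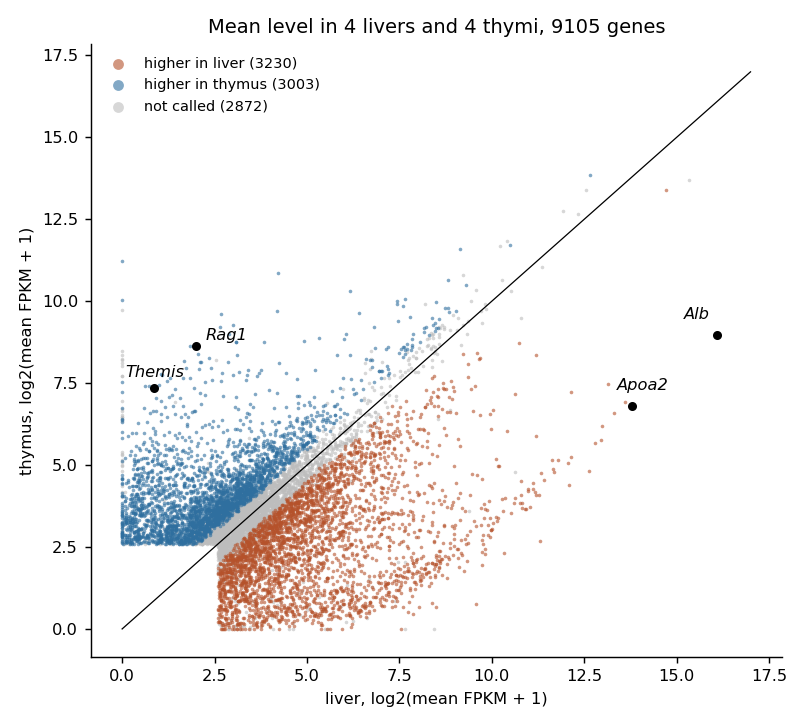
Mean level of the 9105 genes in 4 livers (horizontal axis) and 4 thymi (vertical axis), both in log2(mean FPKM + 1), coloured by call, with the line of equal levels. The 3230 genes called higher in liver reach further along the liver axis than the 3003 called higher in thymus reach along the thymus axis.

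How the levels are scaled bears on which organ holds more calls. The deposited values summed to 634893 to 768248 FPKM in the livers and to 313981 to 350415 FPKM in the thymi. Of the genes called with FPKM as deposited, 47.1% were higher in liver, against 22.2% after each library was rescaled to a common sum, and 18.5% when Rn45s, Lars2 and small RNA genes were left out of that sum. The median difference of all genes tested was -0.13, -1.10 and -1.41 with these scalings. Centring each library on its median ratio, over genes above 1 FPKM in every library, left the balance almost as deposited. It gave 46.7% of calls higher in liver and a median difference of -0.14. With that centring, 944 called genes were at least 8-fold higher in liver and 501 in thymus. The count of called genes with at least an 8-fold difference leaned to the thymus after rescaling to the common sum, with 754 higher in liver and 1130 in thymus, whereas at 64-fold the lean to the liver remained, with 221 higher in liver and 117 in thymus. Among genes described below, Atp2a2, Cebpb, Cycs, Hadhb, Hba-a1, Idh2, Ldha, Poll and Tcf7l2 lost their liver call after rescaling to the common sum. Their limma adjusted p was then 0.0517 to 0.473. Casp9, Psmb5 and Xiap lost theirs too, with differences turned to -0.02, -0.20 and -0.07 (limma adjusted p of 0.941, 0.414 and 0.754).

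The share of the FPKM sum in the highest genes depended on how many were counted. The 10 highest genes made up 34.6%, 23.7%, 33.4% and 30.3% of the FPKM sum in the livers, against 22.8%, 23.5%, 25.2% and 26.5% in the thymi, and the B6 MegaFasL liver lay within the range of the thymi. The highest gene was Alb in every liver, but Snord22, Rpph1, Rn45s and Rmrp in the thymi. Rn45s and Lars2 were among the 10 highest in every library. Libraries of polyadenylated RNA are not made to measure small RNAs, so these are not shares of messenger RNA alone. The 100 highest genes made up 58.5%, 50.3%, 56.5% and 54.3% of the FPKM sum in the livers, against 46.6%, 44.8%, 43.9% and 46.9% in the thymi. For these 100 genes every liver lay above every thymus, with means of 54.9 ± 3.48% in liver and 45.5 ± 1.46% in thymus (SD, n = 4 each), and an exact two-sided sign-flip permutation test over the 4 mice gave p = 0.125, the smallest it can give. Between 45 and 98 genes made up 50% of the sum in a liver, against 128 to 168 genes in a thymus. Yet genes with at least 1 FPKM numbered 10412 to 10850 in the livers and 10803 to 11833 in the thymi, and these ranges overlapped.

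The 28 gene lists used below, and the pairs of related enzymes, were chosen with earlier results of these data known. They are described by their counts and medians, beside a median of -0.13 and 28.6% and 32.1% called higher and lower over all genes tested.

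**Figure D4:**
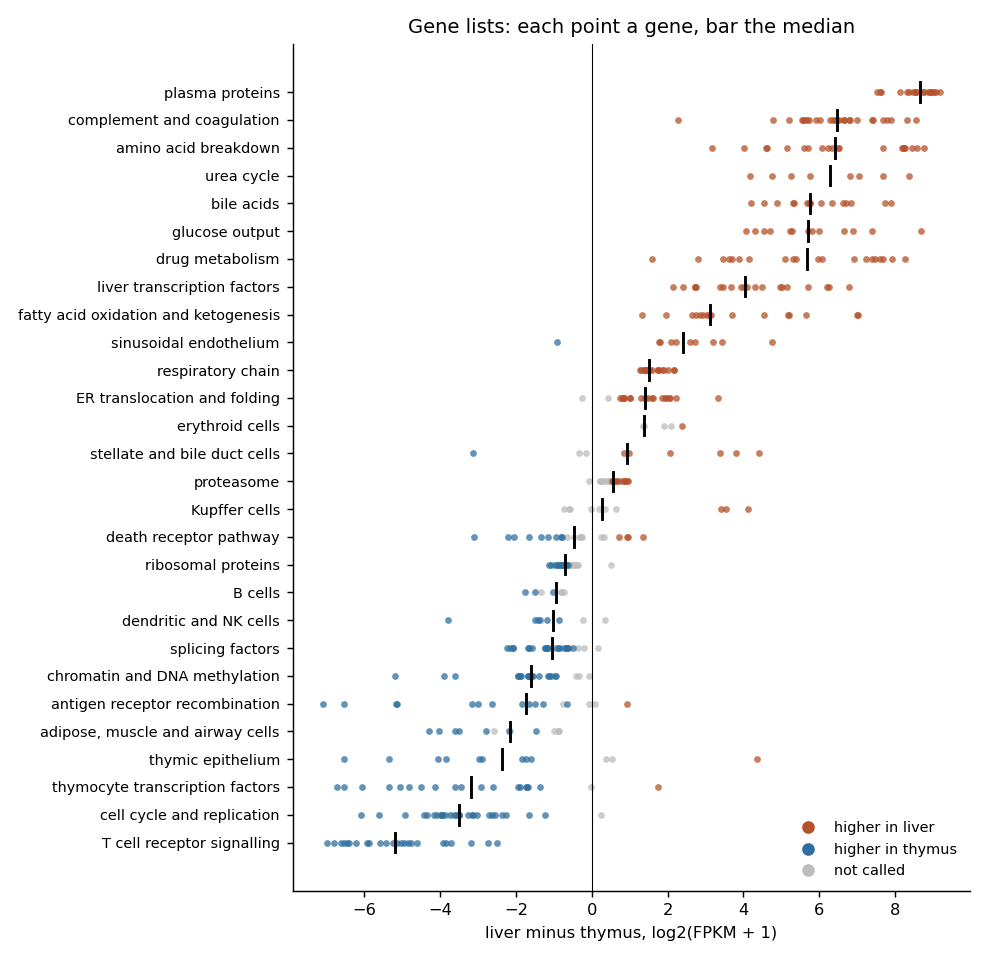
Liver minus thymus differences in log2(FPKM + 1) of the tested genes of 28 lists, with each gene a point coloured by call. The bar is the median over all genes matched for a list, including those not tested. Medians ran from -5.19 for T cell receptor signalling to 8.64 for plasma proteins.

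All 20 plasma protein genes were called higher in liver, with differences of 7.53 to 9.17 and a median of 8.64. Their medians by mouse were 8.92, 10.21, 5.02 and 10.54, the lowest in the MSM untreated pair. Gc, the vitamin D binding protein, varied least between livers among them, with 4640, 4170, 4140 and 4240 FPKM in the livers, against 8.57, 2.21, 117 and 0.721 FPKM in the thymi. Its difference was 8.92 ± 0.96 (SE, limma adjusted p = 0.000517, 10.18 without the MSM untreated mouse and 8.13 without the B6 untreated mouse). Apob, the structural protein of low density lipoprotein, had 1970, 1710, 1940 and 1640 FPKM in the livers, against 4.19, 1.28, 47 and 0.613 FPKM in the thymi, a difference of 8.36 ± 0.75 (SE, limma adjusted p = 0.00027, 9.37 without the MSM untreated mouse). Fetub, the plasma protein fetuin-B, varied most between livers, at 1050, 349, 760 and 255 FPKM in the livers, against 2.70, 1.04, 5.91 and 0 FPKM in the thymi. Both MSM livers held more Fetub than both B6 livers.

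Complement and clotting factors were called higher in liver for all 27 genes, with a median of 6.47. Plg, the precursor of the clot-dissolving plasmin, had 1180, 1030, 994 and 797 FPKM in the livers, against 0.754, 0.581, 26.8 and 0.227 FPKM in the thymi, a difference of 8.31 ± 0.75 (SE, limma adjusted p = 0.000273, 9.36 without the MSM untreated mouse). C3, the central complement component, was the gene of this list with the highest level in thymus, at 2340 ± 423 FPKM in liver and 58.8 ± 46.7 FPKM in thymus (SD, n = 4 each), and differed by 5.58 ± 0.39 (SE, limma adjusted p = 0.000124). Pros1, which encodes protein S, a cofactor in the control of clotting, differed least, with 15.1, 23.4, 12.8 and 24.8 FPKM in the livers, against 2.09, 2.90, 4.62 and 2.84 FPKM in the thymi. The proteases that start the lectin pathway, Masp1 and Masp2, differed by 5.21 ± 0.34 (SE, limma adjusted p = 9.94e-05) and 6.80 ± 0.37 (SE, limma adjusted p = 7.65e-05).

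All 8 urea cycle genes were higher in liver, with a median of 6.28. Cps1, which fixes ammonia in the first step, had 2800, 1760, 2020 and 1260 FPKM in the livers, against 2.85, 2.57, 40 and 0.902 FPKM in the thymi, and a difference of 8.36 ± 0.66 (SE, limma adjusted p = 0.000179, 9.28 without the MSM untreated mouse). Otc, the next enzyme, had 285, 243, 316 and 248 FPKM in the livers, against 0.311, 0.144, 6.18 and 0.703 FPKM in the thymi. Nags, which makes the activator of Cps1, reached only 31.3 ± 5.82 FPKM in liver (SD, n = 4) and was listed at 0 in 3 of the 4 thymi. All 20 genes of amino acid breakdown were higher in liver too, with a median of 6.41. Hpd of tyrosine breakdown led them at 8.75 ± 0.83 (SE, limma adjusted p = 0.000319, 9.89 without the MSM untreated mouse). Tat, the first enzyme of that route, varied most between livers, at 2920, 835, 933 and 457 FPKM in the livers, against 1.33, 1.36, 12.4 and 0.8 FPKM in the thymi. Oat, ornithine aminotransferase, had the smallest difference, 3.17 ± 0.41 (SE, limma adjusted p = 0.00106), with 313 ± 118 FPKM in liver and 32.6 ± 10.8 FPKM in thymus (SD, n = 4 each).

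All 16 bile acid genes were higher in liver, with a median of 5.76. Cyp7a1, the rate-limiting enzyme of bile acid synthesis, had 77.4, 148, 21.4 and 119 FPKM in the livers, against 0, 0, 2.59 and 0 FPKM in the thymi. It was listed above 0 in no thymus but the MSM untreated one, and the difference was 5.76 ± 0.76 (SE, limma adjusted p = 0.00115, 6.80 without the MSM untreated mouse). Abcb11, the pump that exports bile salts into bile, had 179, 206, 224 and 348 FPKM in the livers, against 0.137, 0.126, 10.8 and 0.124 FPKM in the thymi, while Slc10a1, which takes them up from blood, had 524, 529, 276 and 353 FPKM in the livers, against 8.92, 2.93, 15.2 and 5.20 FPKM in the thymi. The livers exceeded the thymi without overlap for both transporters.

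The 13 genes of glucose output and hepatic sugar use were all higher in liver, with a median of 5.69. Igfbp1, a secreted binding protein that responds to fasting, differed most between livers, at 542, 19, 34.2 and 28.2 FPKM in the livers, against 0.243, 0, 2.96 and 0 FPKM in the thymi, and its MSM MegaFasL liver stood far above the rest. Pck1, the entry enzyme of gluconeogenesis, had 2060, 1370, 734 and 438 FPKM in the livers, against 12.8, 7.61, 95.1 and 7.09 FPKM in the thymi, with both injected livers above both untreated ones. Its difference was 5.81 ± 0.73 (SE, limma adjusted p = 0.000974, 6.77 without the MSM untreated mouse).

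All 16 genes of oxidation and ketogenesis were higher in liver, but the median was 3.12, and the lowest difference, 1.33, was that of Hadhb. Hadhb, a subunit of the mitochondrial trifunctional protein, had 130, 129, 161 and 147 FPKM in the livers, against 52.5, 35.6, 132 and 38.7 FPKM in the thymi, and the MSM untreated thymus lay between the livers. Its difference was 1.33 ± 0.30 (SE, limma adjusted p = 0.00999, adjusted p = 0.0502 without the B6 MegaFasL mouse). After rescaling to a common sum its difference was 0.27.

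Drug metabolism followed the same direction in all 20 genes, with a median of 5.68. Cyp3a11, a cytochrome P450 with broad substrates, had 7270, 654, 7330 and 2320 FPKM in the livers, against 13.7, 4.00, 61.2 and 0.94 FPKM in the thymi, so that MSM livers exceeded B6 livers within each treatment. Por, the reductase that feeds electrons to these enzymes, had 306, 224, 55.3 and 41.3 FPKM in the livers, against 5.97, 5.13, 12.7 and 5.02 FPKM in the thymi. Both injected livers held more Por than both untreated livers. P450 genes have close paralogs, and reads shared among them could be split between genes.

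All 20 liver transcription factor genes were higher in liver, with a median of 4.05. Hnf4a, a nuclear receptor that maintains the hepatocyte programme, had 177, 211, 118 and 118 FPKM in the livers, against 0.0772, 0.0713, 2.22 and 0 FPKM in the thymi, a difference of 6.78 ± 0.41 (SE, limma adjusted p = 8.8e-05). Nr0b2, the bile acid responsive corepressor SHP, was listed at 0 in 3 of the 4 thymi and had 61.1, 18.8, 48.6 and 33.9 FPKM in the livers. Cebpb, a factor also used by many immune cells, had 31.3, 25.2, 7.10 and 15 FPKM in the livers, against 1.48, 0.911, 5.44 and 3.56 FPKM in the thymi, and a difference of 2.40 (95% interval 0.94 to 3.87, limma adjusted p = 0.0148, 3.09 without the MSM untreated mouse and not called without the MSM MegaFasL or B6 MegaFasL mouse, adjusted p up to 0.0661). The MSM untreated pair lay closest together.

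Of 21 genes of protein translocation and folding in the endoplasmic reticulum, 19 were higher in liver, none in thymus, and 2 were not called, with a median of 1.40. P4hb, protein disulfide isomerase, had 538, 564, 576 and 497 FPKM in the livers, against 52.2, 43.3, 74.7 and 48.5 FPKM in the thymi, and differed by 3.32 ± 0.19 (SE, limma adjusted p = 8.19e-05). Hspa5, the chaperone BiP, had 319, 308, 500 and 366 FPKM in the livers, against 102, 69.4, 107 and 75.9 FPKM in the thymi. After rescaling to a common sum the median of this list was 0.35, with 8 genes called higher in liver and 2 in thymus. All 20 respiratory chain genes were higher in liver, with a median of 1.52, and 7 of them after that rescaling, with a median of 0.46. Ndufa4, of the terminal oxidase, had 725, 691, 622 and 727 FPKM in the livers, against 158, 128, 232 and 116 FPKM in the thymi. No thymus reached a liver for Ndufa4, and the MSM untreated thymus was the highest of the thymi.

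All 24 T cell receptor signalling genes were called higher in thymus, with a median of -5.19. By mouse the medians were -5.75, -5.36, -5.20 and -4.38, the smallest difference being that of the B6 untreated pair. Cd8a, a chain of the CD8 coreceptor, had 0.219, 0, 0.598 and 3.55 FPKM in the livers, against 257, 215, 180 and 218 FPKM in the thymi, a difference of -6.97 ± 0.39 (SE, limma adjusted p = 7.88e-05). Cd3e, a signalling chain of the receptor complex, had 0, 0.45, 0 and 0.987 FPKM in the livers, against 82.4, 92.3, 55.1 and 79 FPKM in the thymi. Lck, the kinase bound to the coreceptors, had 1.36, 1.19, 1.23 and 5.57 FPKM in the livers, against 286, 269, 211 and 236 FPKM in the thymi. Fyn and Zap70, kinases that act beside and after Lck, differed least, by -2.49 ± 0.33 (SE, limma adjusted p = 0.00118) and -2.74 ± 0.29 (SE, limma adjusted p = 0.000502). The B6 MegaFasL liver held the most of these last genes among the livers, with 5.02 FPKM of Fyn and 5.90 FPKM of Zap70.

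Of 16 genes of antigen receptor recombination and end joining, 12 were higher in thymus, 1 in liver and 3 were not called. None was called higher in liver when any mouse but the B6 untreated one was left out, or after rescaling to a common sum. Rag2, the recombinase subunit that acts with Rag1, had 0, 0, 0 and 0.191 FPKM in the livers, against 37.9, 39.7, 25.1 and 42.9 FPKM in the thymi. Dntt, the polymerase that adds bases without a template at the joins, had 1.36, 2.08, 1.55 and 7.49 FPKM in the livers, against 329, 354, 250 and 404 FPKM in the thymi, a difference of -6.54 ± 0.28 (SE, limma adjusted p = 6.63e-05). Among the general end-joining genes, Xrcc6 was higher in thymus, with a difference of -3.16 ± 0.23 (SE, limma adjusted p = 0.000142), whereas its partner Xrcc5 differed by 0.08 (95% interval -0.34 to 0.50, limma adjusted p = 0.7) and was not called, though it was called at -0.94 after rescaling to a common sum. Poll, a repair polymerase, was called higher in liver by 0.93 ± 0.29 (SE, limma adjusted p = 0.0329, not called without the MSM MegaFasL, B6 MegaFasL or MSM untreated mouse, adjusted p up to 0.118), and its livers and thymi overlapped.

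Thymocyte transcription factors were higher in thymus for 18 of 20 genes, with a median of -3.19. Satb1, a chromatin organiser of T cells, had 0.213, 0.372, 0.29 and 1.73 FPKM in the livers, against 155, 225, 109 and 182 FPKM in the thymi, a difference of -6.71 ± 0.26 (SE, limma adjusted p = 6.63e-05). Bcl11b, which commits precursors to the T lineage, had 0, 0.37, 0 and 1.22 FPKM in the livers, against 40.1, 48.3, 37.2 and 47.4 FPKM in the thymi. Gata3, a factor of early T cell development, was listed at 0 in all livers and had 6.07, 7.97, 6.82 and 5.58 FPKM in the thymi. Zbtb7b, the CD4 lineage factor, was instead called higher in liver, at 15.5, 15.3, 16.2 and 20.6 FPKM in the livers, against 5.24, 2.80, 6.19 and 3.41 FPKM in the thymi. Id3, an inhibitor of E proteins, was not called, with differences by mouse of -1.45, 0.64, -0.64 and 1.42, negative in both MSM pairs and positive in both B6 pairs.

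Genes of the cell cycle and DNA replication were higher in thymus for 28 of 29, with a median of -3.51. Top2a, a topoisomerase of dividing cells, had 1.90, 0.332, 0.576 and 3.88 FPKM in the livers, against 195, 151, 133 and 157 FPKM in the thymi, a difference of -6.09 ± 0.31 (SE, limma adjusted p = 7.19e-05). Mki67, the proliferation antigen Ki-67, had 2.96, 0.788, 0.527 and 3.64 FPKM in the livers, against 165, 128, 106 and 121 FPKM in the thymi. Plk1, a mitotic kinase, was listed at 0 in all livers and had 9.94, 14.5, 8.50 and 9.28 FPKM in the thymi. Tk1, the cytosolic thymidine kinase, was the exception, with 38.2, 24.8, 19.3 and 19.8 FPKM in the livers, against 31.1, 19.6, 18.8 and 15.7 FPKM in the thymi, and a difference of 0.24 (95% interval -0.14 to 0.62, limma adjusted p = 0.219), which was -0.80 and called after rescaling to a common sum.

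Among the 12 genes with the largest called differences in the thymus direction, 8 were histone genes, and the others were Rag1, Cd8a, Cd8b1 and Arpp21. Hist2h2bb had 10.9, 9.56, 9.94 and 39.8 FPKM in the livers, against 2660, 1460, 1690 and 1600 FPKM in the thymi, and Hist1h1b, a linker histone, had 0, 1.18, 1.23 and 7.78 FPKM in the livers, against 502, 365, 346 and 377 FPKM in the thymi. Hist1h3g was listed at 0 in all livers and had 174, 188, 120 and 261 FPKM in the thymi. Copies of histone genes are nearly identical, so the split among copies is uncertain. The libraries were of polyadenylated RNA, and how fully they capture histone transcripts was not tested. Arpp21, a phosphoprotein, had 0, 0, 0.222 and 1.89 FPKM in the livers, against 159, 207, 128 and 188 FPKM in the thymi, a difference of -6.94 ± 0.30 (SE, limma adjusted p = 6.63e-05).

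Chromatin and DNA methylation genes were higher in thymus for 20 of 23, with a median of -1.59. Uhrf1, which guides methylation of new DNA, had 0.199, 0.347, 0 and 1.52 FPKM in the livers, against 48.7, 54.3, 50.9 and 49 FPKM in the thymi, a difference of -5.19 ± 0.27 (SE, limma adjusted p = 7.19e-05), and Dnmt1, the methyltransferase it guides, differed by -3.60 ± 0.24 (SE, limma adjusted p = 0.000111). Among the de novo enzymes, Dnmt3a differed by -1.16 ± 0.23 (SE, limma adjusted p = 0.00619), and Dnmt3b, close to 1 FPKM in both organs, by -0.33 (95% interval -1.41 to 0.76, limma adjusted p = 0.545, adjusted p = 0.0378 without the MSM untreated mouse). The polycomb pair Ezh2 and Ezh1 differed by -3.89 ± 0.22 (SE, limma adjusted p = 7.88e-05) and -1.08 ± 0.35 (SE, limma adjusted p = 0.0364, not called without the MSM MegaFasL, B6 MegaFasL or MSM untreated mouse, adjusted p up to 0.0925).

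Splicing factors were higher in thymus for 20 of 24 genes and 4 were not called, with a median of -1.05. Srsf7, a serine and arginine rich factor, had 11.6, 14, 11.6 and 15.9 FPKM in the livers, against 74.2, 54, 46.8 and 63.4 FPKM in the thymi, a difference of -2.08 ± 0.19 (SE, limma adjusted p = 0.00028). Of 20 ribosomal protein genes, 13 were higher in thymus and 7 were not called, with a median of -0.71. The list left out Rpl41, Rpl38, Rpl39, Rpl10 and Rps18, which were not called, with differences from -0.05 for Rpl38 to 0.33 for Rpl10. Its counts and median therefore do not stand for all ribosomal protein genes. Rplp0 had 207, 251, 211 and 262 FPKM in the livers, against 643, 474, 466 and 451 FPKM in the thymi, a difference of -1.12 ± 0.22 (SE, limma adjusted p = 0.00548). Rps2 ran the other way without passing the threshold, at 0.51 (95% interval 0.07 to 0.96, limma adjusted p = 0.0505). Leaving out a mouse gave 8 ribosomal calls without the B6 untreated mouse, 11 without the MSM untreated, 8 without the B6 MegaFasL and 5 without the MSM MegaFasL mouse. The injected mice alone gave 0 calls and no filter on level 5. With either rescaling all 20 were called higher in thymus, and the ribosomal median was -1.78 or -2.09.

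Proteasome genes changed direction with the scaling. Of 20 genes, 10 were called higher in liver and none in thymus, with a median of 0.55. The count in liver was 4 without the B6 MegaFasL mouse, 7 to 10 without another mouse and 1 in the injected mice alone. After rescaling to a common sum, 0 were higher in liver and 9 in thymus, with a median of -0.51. Both medians lay above those of all genes tested with the same scaling, -0.13 and -1.10.

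Within families of related enzymes the organs often differed in the gene they held. The 23 families chosen held 55 genes of the tables, and a share given of one is of its summed mean FPKM in an organ.

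Hk1 and Hk2 are hexokinases, which phosphorylate glucose in most tissues. Hk1 had 0, 0.428, 0.889 and 0.312 FPKM in the livers, against 12, 10.8, 10.4 and 7.92 FPKM in the thymi, a difference of -3.03 ± 0.25 (SE, limma adjusted p = 0.000216). The groups did not overlap. Hk2 was also higher in thymus, with a difference of -1.61 ± 0.37 (SE, limma adjusted p = 0.0111), while Hk3 differed by 0.37 (95% interval -0.77 to 1.52, limma adjusted p = 0.511). The glucose transporters divided between the organs: Slc2a2, of hepatocytes, differed by 6.65 ± 0.51 (SE, limma adjusted p = 0.00016, 7.32 without the MSM untreated mouse), Slc2a1 by -0.82 ± 0.23 (SE, limma adjusted p = 0.0226, not called without the B6 MegaFasL, MSM untreated or B6 untreated mouse, adjusted p up to 0.0808) and Slc2a3 by -1.62 ± 0.28 (SE, limma adjusted p = 0.00332).

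Pyruvate kinase, at the end of glycolysis, was split between the organs. Pklr, the liver and red cell form, had 33.6, 99.4, 49.8 and 84.4 FPKM in the livers, against 0.522, 0, 4.18 and 0 FPKM in the thymi, a difference of 5.22 ± 0.58 (SE, limma adjusted p = 0.000601, 5.86 without the MSM untreated mouse). Pkm2, the symbol in the tables for the gene of the muscle and proliferative forms, had 2.85, 8.72, 3.63 and 13.9 FPKM in the livers, against 146, 93.9, 108 and 87.1 FPKM in the thymi, a difference of -3.92 ± 0.45 (SE, limma adjusted p = 0.000678). The groups did not overlap for either gene. Aldoa, the ubiquitous aldolase, differed by -1.19 ± 0.30 (SE, limma adjusted p = 0.0151, adjusted p = 0.0536 without the MSM MegaFasL mouse), and the MSM untreated thymus held the most of it, 200 FPKM. With FPKM as deposited, phosphofructokinase divided by its platelet form only: Pfkp differed by -2.95 ± 0.31 (SE, limma adjusted p = 0.000493), whereas the liver form Pfkl, with 21.2, 8.85, 25.1 and 10 FPKM in the livers, against 17, 7.51, 18.3 and 6.19 FPKM in the thymi, and the muscle form Pfkm were not called. Pfkl differed by 0.39 (95% interval -0.01 to 0.80, limma adjusted p = 0.084), and by -0.62 and called after rescaling to a common sum. Pfkm was also called after that rescaling, at -1.08.

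Both subunits of lactate dehydrogenase were called with FPKM as deposited, in opposite directions. Ldhb, the heart subunit, had 0, 0.511, 0 and 2.24 FPKM in the livers, against 121, 79.9, 99.6 and 81.3 FPKM in the thymi, a difference of -6.0 ± 0.39 (SE, limma adjusted p = 0.000102). Ldha, the muscle subunit, was present in both organs, with 279, 255, 393 and 381 FPKM in the livers, against 132, 115, 159 and 127 FPKM in the thymi, and made up 99.8% of the pair in liver and 58.2% in thymus. Its difference of 1.27 ± 0.18 (SE, limma adjusted p = 0.00153) became -0.10 once libraries were rescaled without small RNA genes.

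Enzymes of amino acid use differed as well. Gls2, the liver glutaminase, had 140, 136, 126 and 109 FPKM in the livers, against 0.426, 0.525, 5.49 and 0.128 FPKM in the thymi, a difference of 6.0 ± 0.43 (SE, limma adjusted p = 0.000129). Mat1a, which makes S-adenosylmethionine in adult liver, differed by 8.45 ± 0.73 (SE, limma adjusted p = 0.000239, 9.48 without the MSM untreated mouse), and Mat2a, its counterpart elsewhere, by -1.11 ± 0.22 (SE, limma adjusted p = 0.00554). Mat2a had 42.3, 31, 19.3 and 15.4 FPKM in the livers, against 65, 58.9, 48 and 50.6 FPKM in the thymi, with no overlap. The mitochondrial aspartate and glutamate carriers varied little between livers. Slc25a13 had 103, 107, 90.9 and 94.1 FPKM in the livers, against 3.41, 5.69, 4.37 and 4.97 FPKM in the thymi. Slc25a12, the form of other tissues, had 4.91, 5.10, 5.31 and 4.92 FPKM in the livers, against 10.7, 12.3, 7.68 and 12.9 FPKM in the thymi.

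Glycogen and lipid enzymes added further pairs. Pygl, liver glycogen phosphorylase, differed by 4.69 ± 0.42 (SE, limma adjusted p = 0.000257) and Pygb, the brain form, by -2.76 ± 0.34 (SE, limma adjusted p = 0.000934). Scd1, the main fatty acid desaturase of liver, had 298, 1140, 655 and 1910 FPKM in the livers, against 21.4, 24.6, 166 and 60.9 FPKM in the thymi, and Scd2 had 0.969, 1.16, 2.09 and 2.78 FPKM in the livers, against 18.8, 43, 30 and 44.1 FPKM in the thymi. Both Scd genes separated the organs without overlap, in opposite directions. Fabp1, the liver fatty acid binding protein, differed by 9.05 ± 1.05 (SE, limma adjusted p = 0.000689, 8.36 without the B6 MegaFasL mouse and 10.47 without the MSM untreated mouse and 8.43 without the B6 untreated mouse). Fabp5, the epidermal form, had 6.97, 87.6, 9.50 and 77.6 FPKM in the livers, against 85.7, 117, 63.1 and 116 FPKM in the thymi, a difference of -1.76 ± 0.55 (SE, limma adjusted p = 0.0319, not called without the MSM MegaFasL or MSM untreated mouse, adjusted p up to 0.103). The B6 livers lay within the range of the thymi and the MSM livers below it.

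Proteins outside metabolism were compared in the same way. Lmna and Lmnb1, which encode lamins of the nuclear envelope, differed by 2.08 ± 0.29 (SE, limma adjusted p = 0.00141) and -3.76 ± 0.32 (SE, limma adjusted p = 0.000232). The calcium pumps of the endoplasmic reticulum Atp2a2 and Atp2a3 differed by 1.45 ± 0.16 (SE, limma adjusted p = 0.000532) and -4.55 ± 0.18 (SE, limma adjusted p = 6.63e-05). Of the factors that carry Wnt signals to DNA, Tcf7l2 differed by 1.32 ± 0.26 (SE, limma adjusted p = 0.00573), and Tcf7, the T cell form, had 1.25, 2.73, 1.13 and 3.59 FPKM in the livers, against 391, 303, 237 and 215 FPKM in the thymi. Lef1, its close relative, differed by -4.81 ± 0.35 (SE, limma adjusted p = 0.00014). The catalytic subunits of the proteasome divided into the standard Psmb5 at 0.85 ± 0.20 (SE, limma adjusted p = 0.0107, adjusted p = 0.0524 without the B6 MegaFasL mouse), the immunoproteasome subunit Psmb8 at -1.88 ± 0.30 (SE, limma adjusted p = 0.0024) and the thymic cortex subunit Psmb11 at -3.85 ± 0.24 (SE, limma adjusted p = 9.37e-05). After rescaling to a common sum 3 of these liver calls were lost by limma, with differences of 0.41 (adjusted p = 0.0533) for Atp2a2, 0.80 (adjusted p = 0.0517) for Tcf7l2 and -0.20 (adjusted p = 0.414) for Psmb5. The liver call of Lmna and the thymus calls were kept.

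Not every family divided with FPKM as deposited. Idh1 and Idh2, isocitrate dehydrogenases of cytosol and mitochondria, were both higher in liver, by 4.02 ± 0.29 (SE, limma adjusted p = 0.000129) and 1.27 ± 0.15 (SE, limma adjusted p = 0.000828), although Idh2 stood at -0.09 once libraries were rescaled without small RNA genes. Gys1, G6pc3, Pygm and Cpt1b, the counterparts of the liver genes Gys2, G6pc, Pygl and Cpt1a, were not called, with differences of -0.57, -0.63, -0.38 and -1.27. After rescaling to a common sum, Gys1 at -1.50, G6pc3 at -1.63 and Cpt1b at -2.26 were called higher in thymus. Pygm, at -1.14, was still not called (limma adjusted p = 0.0521). Arg2, Pck2 and Cpt1c averaged below 1 FPKM in both organs and were not tested.

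**Figure D5:**
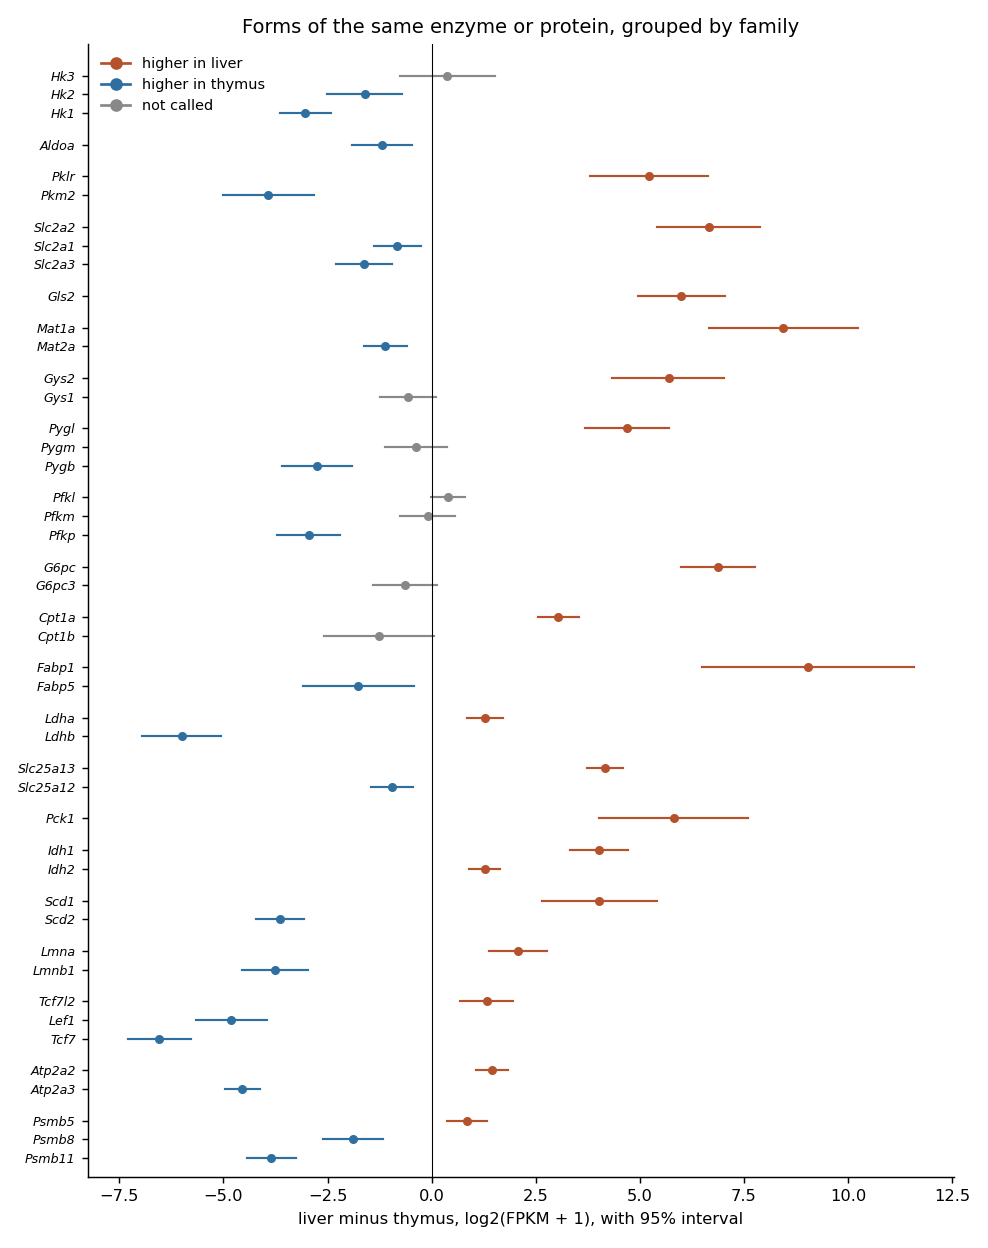
Liver minus thymus differences in log2(FPKM + 1) with 95% intervals for the related enzymes and proteins described in the text, grouped by family and coloured by call. Tcf7 (-6.54), Ldhb (-6.0) and Lef1 (-4.81) lie furthest to the thymus side, and Fabp1 (9.05) and Mat1a (8.45) furthest to the liver side.

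Of 21 death receptor and apoptosis genes, 4 were higher in liver, 9 in thymus and 8 were not called, with a median of -0.46. After rescaling to a common sum, 0 were higher in liver and 16 in thymus, with a median of -1.42, and without small RNA genes in the sum 0 and 17. Leaving out a mouse gave 2 or 3 in liver and 6 to 8 in thymus, with 2 and 7 without the B6 MegaFasL mouse and 3 and 6 without the MSM untreated mouse, and the injected mice alone gave 3 and 5. Fas, the receptor itself, had 2.97, 12.6, 7.20 and 31.2 FPKM in the livers, against 15, 17.3, 8.83 and 27.9 FPKM in the thymi. The liver range contained that of the thymi, with the B6 liver above the MSM liver in each treatment, and the difference was -0.64 (95% interval -1.53 to 0.26, limma adjusted p = 0.174). Casp8, the initiator caspase of the receptor, was higher in thymus, with a difference of -0.82 ± 0.27 (SE, limma adjusted p = 0.0406, not called without the MSM MegaFasL, B6 MegaFasL or MSM untreated mouse, adjusted p up to 0.102), and Cflar, its inhibitor, differed by 0.33 (95% interval -0.06 to 0.72, limma adjusted p = 0.119), which became -0.71 and called after rescaling to a common sum. Bcl2, which blocks release of cytochrome c, had 0.454, 0.555, 0.495 and 0.348 FPKM in the livers, against 16.3, 10.6, 13 and 7.83 FPKM in the thymi, a difference of -3.10 ± 0.23 (SE, limma adjusted p = 0.000142). Apaf1, which assembles the caspase activating complex, differed by -2.20 ± 0.30 (SE, limma adjusted p = 0.00132), and Cycs, cytochrome c, was higher in liver by 1.36 ± 0.20 (SE, limma adjusted p = 0.00191). Xiap, an inhibitor of caspases, and Casp9, the initiator caspase of that complex, were called higher in liver, and turned to differences of -0.07 and -0.02 after rescaling to a common sum.

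Of 10 sinusoidal endothelium genes, 9 were higher in liver, with a median of 2.40, and the summed level of the list was 78, 171, 142 and 211 FPKM in the livers, against 17.5, 26.9, 30.9 and 31.3 FPKM in the thymi. Stab2, a scavenger receptor of these cells, had 9.62, 17.5, 16.3 and 18 FPKM in the livers, against 0.0809, 0.822, 1.43 and 0.951 FPKM in the thymi. Pecam1, which all endothelium carries, was the 1 gene called higher in thymus, with a difference of -0.92 ± 0.28 (SE, limma adjusted p = 0.0282, not called without the MSM MegaFasL, B6 MegaFasL or B6 untreated mouse, adjusted p up to 0.0876). Of 10 Kupffer cell genes, Clec4f, Cd5l and Vsig4 were higher in liver and 7 were not called, among them the complement genes C1qa, C1qb and C1qc that macrophages of both organs carry. Clec4f, a lectin of Kupffer cells, had 11.6, 35.9, 13.4 and 60.6 FPKM in the livers, against 0, 0.405, 2.09 and 0 FPKM in the thymi, and Vsig4, a complement receptor, had 4.65, 15.4, 9.39 and 36.1 FPKM in the livers, against 0.783, 0, 0.576 and 0 FPKM in the thymi. Within each treatment the B6 liver held more of both genes than the MSM liver. The Kupffer list summed to 87.6, 198, 81.8 and 419 FPKM in the livers, against 107, 128, 120 and 132 FPKM in the thymi, and its median of 0.26 was -0.21 without the B6 untreated mouse and -0.71 after rescaling to a common sum. Of these genes 2 were called higher in thymus without that mouse and 3 after the rescaling, and 3 were called higher in liver in both cases. Stellate and bile duct genes were higher in liver for 6 of the 9 tested, for 3 without the B6 MegaFasL mouse and for 4 after rescaling to a common sum, led by the stellate cell lectin Colec11 at 4.40 ± 0.21 (SE, limma adjusted p = 6.63e-05), while the bile duct keratin Krt7 was higher in thymus, with a difference of -3.13 ± 0.34 (SE, limma adjusted p = 0.000557).

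Of 12 thymic epithelium genes, 9 were higher in thymus, 1 in liver and 2 were not called. Prss16, a protease of cortical epithelium, had 0.326, 0.57, 0.593 and 2.50 FPKM in the livers, against 204, 189, 131 and 165 FPKM in the thymi. Ccl25, a chemokine that draws precursors into the thymus, had 5.20, 1.30, 3.38 and 4.98 FPKM in the livers, against 193, 239, 107 and 195 FPKM in the thymi. Foxn1, the master factor of this epithelium, and Aire, which drives expression of tissue antigens, were listed at 0 in all livers and had 1.25, 2.45, 2.62 and 1.89 FPKM and 2.04, 4.64, 1.03 and 2.35 FPKM in the thymi. Cldn3, a junction protein also of liver epithelium, was higher in liver by 4.36 ± 0.44 (SE, limma adjusted p = 0.000416), and the keratin Krt8 differed by 0.54 (95% interval -0.14 to 1.21, limma adjusted p = 0.136). B cell genes summed to 0.639, 4.09, 1.45 and 6.45 FPKM in the livers, against 2.97, 15.6, 44.1 and 20.9 FPKM in the thymi, and 3 of 7 tested were called higher in thymus. That count was 1 without the B6 untreated or the MSM untreated mouse, 0 without the B6 MegaFasL mouse and 3 without the MSM MegaFasL mouse. It was 0 in the injected mice alone and with no filter on level, and 6 after rescaling to a common sum. Dendritic and NK cell genes were higher in thymus for 6 of 8 tested, and for 3 in the injected mice alone, with Gzma, a granule protease, at 0.941, 1.64, 0 and 5.41 FPKM in the livers, against 35.1, 33.8, 26.7 and 34.3 FPKM in the thymi.

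Of 13 tested genes of adipose, muscle and airway cells, 7 were called higher in thymus and 6 were not called, and 4 were called without the MSM MegaFasL mouse. Ucp1, the uncoupling protein of brown fat, had 0, 0, 0.801 and 0 FPKM in the livers, against 8.23, 7.81, 220 and 13.7 FPKM in the thymi, a difference of -4.29 ± 0.65 (SE, limma adjusted p = 0.00209, -3.41 without the MSM untreated mouse). Adipoq, the hormone adiponectin of fat cells, had 0, 1.08, 0 and 0 FPKM in the livers, against 9.97, 12.4, 65.3 and 13.8 FPKM in the thymi, a difference of -4.02 ± 0.54 (SE, limma adjusted p = 0.00122, -3.34 without the MSM untreated mouse). Every thymus exceeded every liver for both genes. Scgb1a1, of airway club cells, was listed at 0 in all but the MSM untreated thymus, which had 400 FPKM. Of 5 tested erythroid genes, Hba-a1 was called, higher in liver by 2.37 ± 0.83 (SE, limma adjusted p = 0.048, 1.74 without the MSM MegaFasL mouse and 3.45 without the MSM untreated mouse and not called without the MSM MegaFasL, B6 MegaFasL or B6 untreated mouse, adjusted p up to 0.176), but had 394, 157, 92.1 and 220 FPKM in the livers, against 19.7, 9.77, 171 and 46 FPKM in the thymi, so that the MSM untreated pair ran the other way, and globin copies share reads.

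Genes with an interval inside a 2-fold difference were about as frequent among the 9105 genes as among all genes tested. The 95% interval lay within -1 to 1 for 1931 of the 9105 genes, or 21.2%, against 20.3% of all genes tested, and 140 of the 1931 were nevertheless called. Of the genes not called, 1081 had a wider interval, and for these the interval reached past a 2-fold difference. Among the 10 highest of the 1931 were the nuclear RNA Malat1, the chaperone Hspa8, Tpt1 and the ribosomal protein genes Rpl41, Rpl38, Rpl39, Rpl10, Rps18 and Rps2. Hspa8 had 1380, 943, 704 and 566 FPKM in the livers, against 1640, 810, 843 and 556 FPKM in the thymi, and the levels moved together by mouse, with the MSM MegaFasL mouse highest in both organs. Its difference was -0.06 (95% interval -0.59 to 0.46, limma adjusted p = 0.808). Tpt1, an abundant growth-related protein, had 840, 982, 890 and 970 FPKM in the livers, against 1080, 760, 840 and 823 FPKM in the thymi, a difference of 0.08 (95% interval -0.48 to 0.65, limma adjusted p = 0.772). This similarity holds for FPKM as deposited: after rescaling to a common sum, Tpt1 differed by -0.99 and Hspa8 by -1.14.

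Whether the organ difference itself depended on strain was tested on the 4 differences, MSM minus B6, with treatment in the model and 1 residual degree of freedom. Of 12880 genes 47 were called, or 0.365%, with 14 positive and 33 negative. The count and its direction depended on the setting, with 5 positive and 3 negative after rescaling to a common sum, 4 and 1 with 0.1 FPKM added, 7 and 8 with the filter of 5 FPKM and 53 and 79 with 5 FPKM added. None of the named genes called here was called after rescaling to a common sum, with limma adjusted p of 0.0632 to 0.118. In the model as fitted 1626 had an unadjusted p below 0.05. By size, the rule for named genes took Cyp4a12b, Akr1c18, Hist1h2bj, Hist1h2ak and Ugt2b38 in the positive direction and Mup3, Cyp2b9, Cyp4a14, A1bg and Kng2 in the negative. Cyp4a12b, a fatty acid hydroxylase, had 143, 0, 154 and 0 FPKM in the livers, against 0.293, 0.135, 0.323 and 0 FPKM in the thymi, a strain difference of 6.93 ± 0.42 (SE, limma adjusted p = 0.0108). The liver exceeded the thymus in MSM alone. Cyp2b9, another P450, had 0, 359, 0.69 and 435 FPKM in the livers, against 0.192, 0, 12.1 and 0.173 FPKM in the thymi, a strain difference of -10.12 ± 0.70 (SE, limma adjusted p = 0.0136). Here the liver exceeded the thymus in B6, and the MSM untreated thymus exceeded its own liver. Hist1h2ak was the case on the thymus side, with 0, 0, 0 and 19.2 FPKM in the livers, against 1.68, 502, 0 and 666 FPKM in the thymi, a strain difference of 6.30 ± 0.65 (SE, limma adjusted p = 0.0432). Hist1h2bj and Mup3 were not called, with adjusted p of 0.0552 and 0.0796. Akr1c18, an aldo-keto reductase, had 125, 0.573, 138 and 0 FPKM in the livers, against 0.331, 0.306, 0 and 0 FPKM in the thymi, a strain difference of 6.71 ± 0.46 (SE, limma adjusted p = 0.0136). A1bg, a plasma glycoprotein, ran the other way, with 1.18, 202, 0.713 and 226 FPKM in the livers, against 0.396, 0, 5.24 and 0 FPKM in the thymi, a strain difference of -8.36 ± 0.69 (SE, limma adjusted p = 0.023). As with Cyp2b9, the MSM untreated thymus held more A1bg than its own liver. Both genes meet the rule given above for genes high in B6 liver, which summed in that thymus to 2.74% of the B6 untreated liver. The part of these thymus levels in the strain differences was not tested. The mm10 reference is built from C57BL/6, and the part of sequence divergence in a level near 0 in MSM was not tested.

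Whether the organ difference depended on the injection was tested in the same way, MegaFasL minus untreated with strain in the model. Of 12880 genes 5 were called, or 0.0388%, and 974 had an unadjusted p below 0.05. All 5 were small nucleolar RNA genes, Snord49b, Snora33, Snora5c, Snora44 and Snora30, named here after their values were seen. They were listed at 0 in 2 to 6 of the 8 libraries, and libraries of polyadenylated RNA are not made to measure such RNAs. By the rule for named genes, which leaves out small RNA genes, Thrsp, a regulator of fat synthesis, and Lpin1, a lipid phosphatase and coregulator, had the highest injection differences, and neither was called. Lpin1 had 380, 195, 15 and 9.34 FPKM in the livers, against 4.86, 4.41, 9.96 and 3.24 FPKM in the thymi, with an injection difference of 4.69 ± 0.49 (SE, limma adjusted p = 0.238). Usp2, a deubiquitinase with a daily rhythm, had 43.7, 15.8, 0.955 and 0.201 FPKM in the livers, against 0.788, 0.997, 1.09 and 0.767 FPKM in the thymi, with an injection difference of 4.18 ± 0.49 (SE, limma adjusted p = 0.247). Arntl, the core clock factor BMAL1, had 0.527, 1.15, 17.5 and 9.22 FPKM in the livers, against 18, 14.9, 12.4 and 15.5 FPKM in the thymi, with an injection difference of -3.15 ± 0.55 (SE, limma adjusted p = 0.443). For Lpin1, Usp2 and Arntl both injected livers lay to the same side of both untreated livers, while the thymi of injected and untreated mice overlapped. The injected and untreated mice stood in separate deposited tables, and neither the hour of collection nor the time since injection is known here, so that these cannot be told apart from the injection.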

How the data were processed

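Polyadenylated RNA was sequenced from 4 livers and 4 thymi of 4 mice. According to the submitters' processing notes, TopHat and Cuffdiff 2.2.1 were used with mm10, and the authors deposited gene FPKM in 1 table for untreated and 1 for injected mice, with no statement of whether these were normalized together or of the annotation. Both organs came from the same mouse according to the series' design text, so every difference was taken within a table and the mouse entered the fit as a block.

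FPKM was taken as deposited and log2(FPKM + 1) was fitted with limma 3.58.1 (R 4.3.3), with its mean trend, two-sided, over the 12880 genes that averaged 1 FPKM or more in either organ. The added 1 shrinks differences of low genes. The tables hold no counts. From 2015 genes with 1 transcript of at least 1500 bases, a scale was chosen for each library by the share of low values that became whole fragments. At that scale, 68.4% to 72.9% of the 375 to 498 low values used lay within 0.1 of a whole number. Chance gives 20.0% at a fixed scale, which is not the chance level for a chosen one. The chosen scales put 5 FPKM on a 2 kb transcript at 15.6 to 18.0 fragments in the livers and 28.2 to 34.3 in the thymi. These estimates cover counting error only, and thymus levels rest on more fragments.

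For the organ difference, p-values set the mean of the 4 within-mouse differences against their spread, which limma moderates over genes. The 4 mice differed in strain and treatment, so that spread is not one between replicates. The genes, 28 lists and 23 enzyme families were chosen with earlier results of these data known, and 479 of 480 list entries matched the tables. Named genes were the 12 largest called differences each way with the same sign in 4 mice, members of a list or family, the 5 largest each way for the strain and injection tests, the 10 highest with an interval within -1 to 1, and the genes nearest 5 FPKM, leaving out predicted and small RNA symbols. Alternatives were added values of 0.1 and 5 FPKM, no level filter or one of 5 FPKM, 3 other scalings, robust limma, limma with no trend, models with other terms, and each mouse left out in turn. Some genes are not reported here.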

Additional observations from a re-analysis of the deposited data

Results flagged for a closer look

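Several differences had 1 mouse far from the other 3. Of 171 named genes tested, 12 stood out in this way, and chance alone marks about 1 in 20 such groups of 4. In the MSM untreated mouse, liver minus thymus differences lay apart for Cps1 at 5.62, Gls2 at 4.29, Hpd at 5.31, Mat1a at 5.39, Plg at 5.16, Stab2 at 2.83, Tk1 at 0.04 and Scgb1a1 at -8.65. The list medians of that mouse also lay apart for complement and coagulation at 4.69, for fatty acid oxidation and ketogenesis at 2.55, for stellate and bile duct cells at 0.15 and for adipose, muscle and airway cells at -4.19. That is the mouse whose thymus held a plasma protein sum equal to 2.71% of that of its liver. In the same thymus, genes high only in B6 liver summed to 2.74% of the B6 untreated liver. Genes high only in MSM liver summed to 0.0431% of the MSM untreated liver.

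In the B6 MegaFasL mouse the differences of Casp9 at 1.10, Rpl39 at 0.97 and Slc2a3 at -2.37 lay apart, as did the median of chromatin and DNA methylation genes at -1.75. In the MSM MegaFasL mouse it was Srsf7 at -2.58.

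The organ difference itself differed between strains for 47 genes. Among the largest, it was higher in MSM for Cyp4a12b by 6.93, Akr1c18 by 6.71, Hist1h2ak by 6.30 and Ugt2b38 by 5.58. It was lower in MSM for Cyp2b9 at -10.12, Cyp4a14 at -8.48, A1bg at -8.36 and Kng2 at -8.07. For each of these genes the MSM untreated thymus exceeded its own liver, with 12.4 against 4.53 FPKM for Cyp4a14 and 7.46 against 1.56 FPKM for Kng2. What these thymus levels add to the strain differences was not tested. None of these named strain calls was kept after rescaling to a common sum. Between injected and untreated mice the organ difference differed for 5 genes, all small nucleolar RNAs.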

How the results depend on the processing

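With FPKM as deposited 7821 genes were called. Rescaling to a common sum left 2082 genes higher in liver and 7294 in thymus, and 1829 and 8063 when Rn45s, Lars2 and small RNA genes were left out of the sum. An alternative chosen after seeing the data, the injected mice alone, gave 5196 calls, with 2729 higher in liver and 2467 in thymus. Leaving out each mouse in turn gave 6268 to 7174 calls, with 3061 to 3461 higher in liver and 3207 to 3713 in thymus. The model with no replicate block gave 7861 calls against 7821 with the mouse as the block. The pairing comes from the mice themselves. The remaining settings gave 6337 to 8130 calls.

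The common sum turned the medians of proteasome genes to -0.51 and of Kupffer cell genes to -0.71. Without small RNA genes these were -0.82 and -1.03, and stellate and bile duct genes turned to -0.28. With each mouse left out in turn, the Kupffer median ran between -0.21 and 0.59, negative without the B6 untreated mouse. Among 171 named genes the common sum turned 10, namely Casp9 to -0.02, Cflar to -0.71, Pfkl to -0.62, Psmb5 to -0.20, Rpl10 to -0.74, Rps2 to -0.56, Tk1 to -0.80, Tpt1 to -0.99, Xiap to -0.07 and Xrcc5 to -0.94. Without small RNA genes 14 turned: Casp9 to -0.29, Cflar to -1.02, Hadhb to -0.04, Idh2 to -0.09, Krt8 to -0.84, Ldha to -0.10, Pfkl to -0.93, Psmb5 to -0.51, Rpl10 to -1.06, Rps2 to -0.87, Tk1 to -1.11, Tpt1 to -1.30, Xiap to -0.38 and Xrcc5 to -1.25. No named gene changed direction with a call under the other settings. Of the named genes, 8 to 15 lost their call and 0 to 9 gained one when a mouse was left out.

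The 47 strain calls became 15 with the filter of 5 FPKM, 26 without the mean trend, 5 and 132 with 0.1 and 5 FPKM added, 8 with the common sum and 30 with robust moderation. The 5 injection calls became 3 with the filter of 5 FPKM, 0 with only the injection in the model, 1 with 0.1 FPKM added and 1 with the common sum. The cause of these shifts was not tested. With 1 mouse per strain and treatment, these tests have 1 residual degree of freedom before moderation.

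Depth limits low genes in liver most, where 5 FPKM on a 2 kb transcript rests on an estimated 15.6 to 18.0 fragments, against 28.2 to 34.3 in thymus.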
